A study of Mus musculus with 8 samples.

Results

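Monocyte and dendritic precursor cells were examined as 80 of 31952 cells in newborn and late fetal mouse blood-forming tissue. They were chosen by a rule on raw UMIs (unique molecular identifiers, each standing for 1 captured transcript): at least 2 UMIs of Csf1r, at least 1 each of Irf8 and Ly86, and 0 of Clec9a, Elane, Camp, Cd79a and Mecom. Cells were considered where they had at least 1000 genes, at least 2000 UMIs and at most 10% mitochondrial UMIs. The 80 members comprised 9 of 6550 cells in bone marrow, 41 of 5634 in liver and 17 of 9043 in spleen at postnatal day 2 (P2), and 13 of 10725 in an embryonic day 19 (E19) library.

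The cells came from the c-Kit-enriched, lineage-negative Epcr+ Sca-1+ Kit+ sort, a gate for hematopoietic stem cells, and were profiled by droplet 3' RNA sequencing. The 3 P2 tissues were taken from wild-type mice, with 7 animals merged per tissue into 1 library, and made up batch 1. E19 was 1 wild-type library of batch 2, isolated and sequenced on other days than P2, with no number of animals given, and its title said bone marrow while its tissue field said fetal liver. A further 2 tubes (batch 3), which the rule did not use, held marrow and spleen of 2 P2 pups with Tppp3CreER and LSLTdTomato given tamoxifen at P0. In these, Cre activity driven from Tppp3 switches on the red reporter, and tubes mixed reporter-positive cells of 1 pup with reporter-negative cells of the other. Each group was thus 1 library of pooled or single animals, so no comparison between tissues or ages had a replicate check and no p-value was computed. Intervals are exact 95% binomial (Clopper-Pearson) for shares of cells and exact 95% Poisson for CPM (a gene's UMIs per 1000000 UMIs of the summed cells). They cover counting error only, and not the spread between animals. The Poisson intervals, taken on UMIs summed over cells, also leave out the spread between cells. Calls by Poisson intervals apart share this limit.

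Monocytes and dendritic cells arise from Flt3-expressing and granule-protease-expressing myeloid progenitors that switch on the receptor for macrophage colony-stimulating factor. Csf1r encodes that receptor. Irf8 encodes a transcription factor that, together with PU.1, directs progenitors to the monocyte and dendritic fates and away from neutrophils, and Ly86 encodes MD-1, the secreted partner of the Toll-like receptor homolog Cd180. Around birth, liver, spleen and bone marrow all hold such progenitors, and liver and spleen also hold resident macrophages of earlier embryonic origin.

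Members were a larger share of cells in P2 liver than in the other 3 libraries. They made up 0.728% of liver cells (0.523 to 0.986), 0.188% of spleen cells (0.110 to 0.301), 0.137% of marrow cells (0.0628 to 0.261) and 0.121% of E19 cells (0.0646 to 0.207). The liver interval lay above the other 3, which overlapped one another. Members held more UMIs per cell than the rest of their library, with medians of 10716 against 8269 in marrow, 13910 against 8136 in liver, 14651 against 7428.5 in spleen and 9908 against 6521 at E19. The part of this depth difference in the shares was not tested beyond the thinning below. With every cell thinned to 5000 UMIs before the rule was applied, the liver share was 0.454% and the spleen share 0.0487%. Thinned shares of marrow and E19 are not given here, so at equal depth liver is set against spleen alone. The 4 libraries held from 64757553 to 87254828 UMIs in 6867 to 11323 barcodes. Over the pairs of these libraries 145 barcodes were shared, and no barcode was a member in 2 of them.

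**Figure D1:**
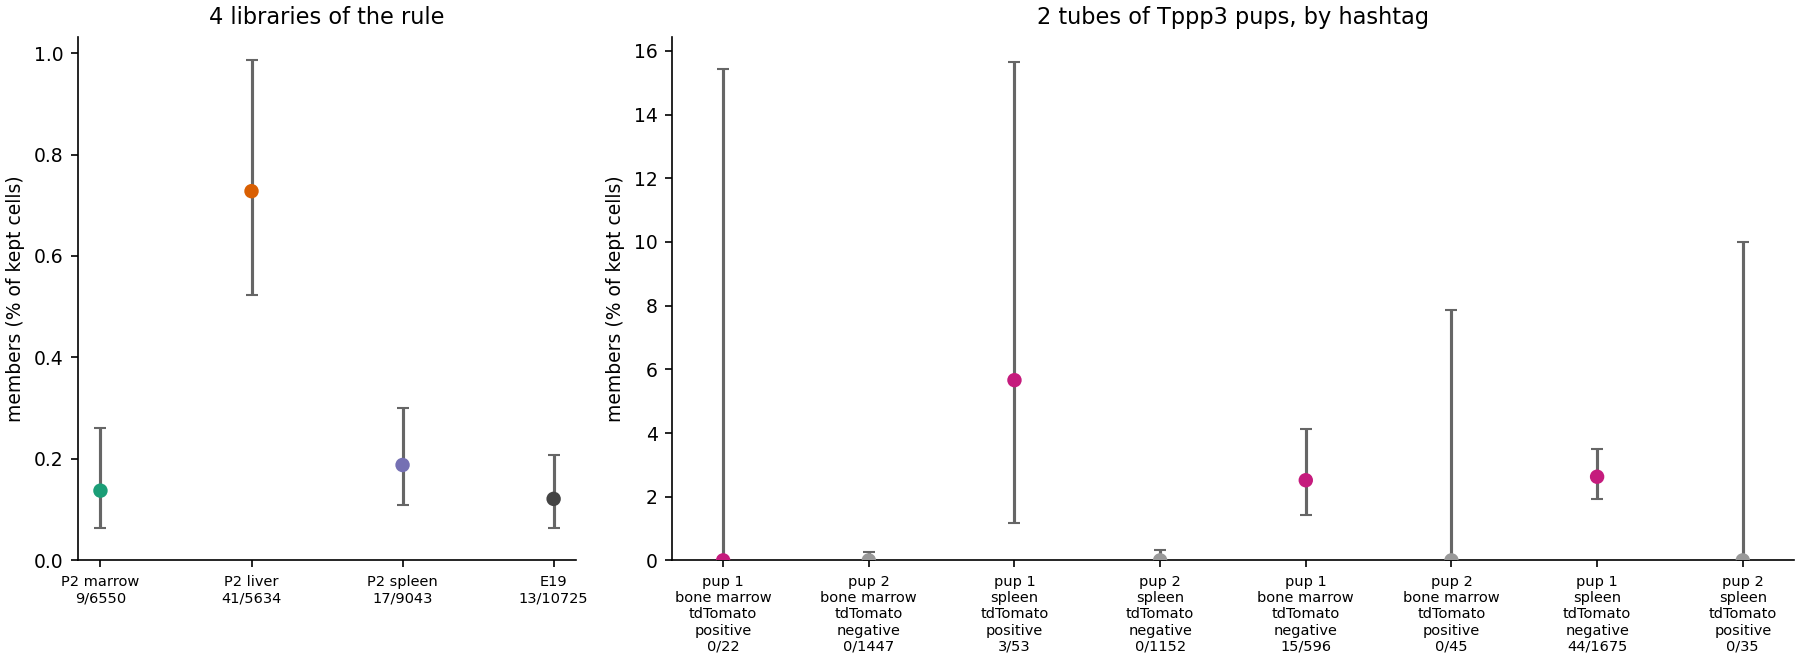
Members as a percentage of kept cells (y axis) with exact 95% binomial intervals, in the 4 libraries of the rule (left) and by pup, tissue and tdTomato sort in the 2 tubes (right). Counts under each point are members over kept cells. The P2 liver point (0.728%) lies above the other 3 on the left, and every point above 0 on the right belongs to pup 1.

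The 3 genes that chose the members are described first, without a test. Csf1r had a median of 2, 3, 2 and 5 UMIs per member in marrow, liver, spleen and E19, with highest values of 6, 12, 5 and 17. Irf8 medians were 11, 7, 5 and 4 UMIs, and Ly86 medians were 3, 5, 5 and 4 UMIs. Csf1r was thus read most deeply at E19 and Irf8 in P2 marrow. At the threshold of Csf1r lay 39 members with exactly 2 UMIs, and 89 cells that met every other condition had 1 UMI.

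The conditions of absence removed most cells that carried the positive genes. Of 403 cells with Csf1r, Irf8 and Ly86 at the required UMIs, 80 were members, which is 12% of such cells in marrow, 16.3% in liver, 34.7% in spleen and 46.4% at E19. Elane, the neutrophil elastase gene, was the only failed condition in 234 cells, 156 of them in liver. Clec9a, a receptor gene of cross-presenting dendritic cells, was the only one in 23, and 20 of these were liver cells. Cells that failed by Elane alone had Prtn3, a granule protease gene, at 4227, 4419 and 3098 CPM in marrow, liver and spleen, against 1555, 1126 and 1018 CPM in the members. They had Flt3 at 27.4, 23.4 and 17.7 CPM, against 253, 115 and 124 CPM in the members. Both sets carried Ms4a6c and Ccr2, with Ms4a6c at 404 CPM in the Elane-positive liver cells and 575 CPM in liver members. The 20 liver cells with Clec9a had Cd74, the invariant chain gene of MHC class II, at 2577 CPM and Id2 at 757 CPM, against 199.6 and 105 CPM in liver members. Xcr1, the chemokine receptor gene of cross-presenting dendritic cells, had a UMI in 6 of those 20 cells and in 0 of 80 members. Among liver cells, Prtn3 was thus highest with Elane, intermediate in members and lowest with Clec9a (367 CPM), and Flt3 ran the other way (209 CPM with Clec9a). The rule itself helps to set this order.

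Of the genes given as markers of the cells, Lyz2 was the only one outside the rule. This lysozyme gene of monocytes, macrophages and neutrophils had 86.8 CPM (43.4 to 155) in marrow members, 607 CPM (547 to 671) in liver, 44.3 CPM (21.2 to 81.4) in spleen and 726 CPM (589.8 to 884) at E19. It was seen in 5 of 9, 19 of 41, 4 of 17 and 10 of 13 members. In each library 1 cell gave a large part of its UMIs, with 54.5%, 33.2%, 50% and 52.5%. In marrow and spleen these levels were close to the 60.7 and 35 CPM of the other cells, so by this marker marrow and spleen members did not stand apart. In erythroid cells of the same libraries (at least 2 UMIs of Klf1), which should lack the gene, a Lyz2 UMI was present in 8.41% in marrow, 6.25% in liver, 4.28% in spleen and 12.4% at E19. Those cells had median depths of 13814, 20998, 15458 and 17928 UMIs, and at 5000 UMIs per cell Lyz2 was seen in 22.2%, 35.9%, 6.67% and 75% of members against 3.45%, 2.1%, 1.66% and 3.96% of them.

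Monocyte genes were prominent in the members, with Ms4a6c and Plac8 seen in most of them. Ms4a6c, which encodes a membrane protein of the MS4A family, was at 458 CPM in marrow members (9 of 9 cells), 575 in liver (41 of 41), 358 in spleen (14 of 17) and 439.8 at E19 (8 of 13). The other cells of these libraries had 59, 94.5, 34.4 and 7.24 CPM, and 1.72% to 4.4% of erythroid cells had a UMI. Ms4a6c was thus seen in 72 of 80 members and stood above the other cells in all 4 libraries. Ccr2, the chemokine receptor gene through which monocytes leave the marrow, was at 94.7, 260.3, 181 and 176 CPM in 5 of 9, 25 of 41, 9 of 17 and 4 of 13 members, against 19.3, 52.8, 13 and 1.07 CPM in the other cells. Plac8, which monocyte precursors share with lymphoid and other myeloid progenitors, was at 2898, 2608, 2045 and 1759 CPM, against 1542, 1733, 836 and 155 CPM in the rest. It made up most of the summed monocyte list in the P2 members.

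Genes of mature monocytes were sparse. Ly6c2, which encodes the surface antigen Ly6C of inflammatory monocytes, was at 79, 46.3, 53.1 and 14.7 CPM, and in liver the other cells had 212 CPM. Cd14, the endotoxin co-receptor gene, had a UMI in 2 of 80 members. Fn1, the fibronectin gene, was seen in 0, 4, 2 and 1 members of marrow, liver, spleen and E19. F13a1, a coagulation factor gene of Ly6C-high monocytes and their precursors, varied widely between cells, with 189, 126, 345 and 535 CPM in only 5, 18, 6 and 3 members. At E19, 76.7% of its UMIs came from 1 cell.

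Genes of plasmacytoid dendritic cells went both ways in the members. Runx2, a transcription factor gene needed for plasmacytoid dendritic cells to leave the marrow, was at 466, 624, 434 and 418 CPM against 118, 79.8, 79.5 and 177 CPM in the other cells. Tcf4, whose product E2-2 drives the plasmacytoid fate, was at 395, 300.2, 301 and 425 CPM against 173, 156, 150.1 and 286. Siglech, a lectin gene largely restricted to plasmacytoid cells and their precursors among blood cells, was seen in 3 of 9, 7 of 41, 3 of 17 and 4 of 13 members, and in 0% to 0.568% of erythroid cells. Siglech was thus seen in 17 of 80 members. Other genes of the list were low: Ly6d, a surface antigen gene shared with lymphoid progenitors, was at 16 CPM in liver members against 170.4 CPM in the other cells, and Spib, a transcription factor gene, at 4.79 against 20.3 CPM. Ccr9 had a UMI in 1 of 80 members and Klk1 in 0.

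Of conventional dendritic cell genes, most were rarely seen. Irf4 and Xcr1 had 0 UMIs in all 80 members, and Zbtb46, the transcription factor gene that defines the conventional lineage, had a UMI in 2, 3, 4 and 1 members of marrow, liver, spleen and E19. Cd74 was absent from the 9 marrow and 13 E19 members (0 UMIs, upper limits of 29.1 and 27 CPM) and was seen in 11 of 41 liver and 1 of 17 spleen members. H2-Aa, an MHC class II chain gene, followed the same pattern with 0, 7, 1 and 0 members. H2-DMa, which encodes a peptide-loading chaperone of class II, was seen more widely, at 174, 150.1, 137 and 117 CPM in 8, 33, 11 and 7 members. Id2, a transcriptional inhibitor gene that conventional dendritic cells and macrophages express, was at 0 UMIs in marrow, 105 CPM in liver, 22.1 CPM in spleen and 433 CPM at E19, where 9 of 13 members had it.

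Most members also carried transcripts of myeloid progenitors. Prtn3 was at 1555, 1126, 1018 and 469 CPM in 9 of 9, 34 of 41, 14 of 17 and 7 of 13 members. With cells thinned to 5000 UMIs, a Prtn3 UMI was present in 100%, 76.9%, 86.7% and 50% of members, against 17.6%, 11.5%, 8.42% and 6.31% of erythroid cells, so Prtn3 lay above that background. Mpo, the myeloperoxidase gene, was at 734, 446, 332 and 205 CPM, below the 1439.7, 1648 and 580.5 CPM of the other P2 cells and above the 100.0 CPM of other E19 cells. Flt3, the receptor gene of lymphoid-primed and dendritic progenitors, was at 253, 115, 124 and 154 CPM in 8, 25, 8 and 6 members. With members thinned to 5000 UMIs it was seen in 6 of 9, 14 of 39, 6 of 15 and 4 of 12, against 2.84%, 1.53%, 1.72% and 4.33% of erythroid cells, so Flt3 lay far above that background. Cd34 was at 103, 171, 79.7 and 293 CPM in 4, 32, 8 and 8 members. Later granulocyte genes were near 0: Camp was excluded by the rule, and Ltf and Ngp had 0 UMIs in all 80 members.

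Transcripts of the sorted surface proteins were scarce. Procr, which encodes Epcr, had 0 UMIs in all 80 members, and Ly6a, which encodes Sca-1, had a UMI in 2. Kit was seen in 2 of 9, 15 of 41, 3 of 17 and 3 of 13 members, at 15.8, 35.1, 13.3 and 36.7 CPM against 113, 82.9, 113 and 221 CPM in the other cells. At 5000 UMIs per cell the Kit shares were 0 of 9, 4 of 39, 2 of 15 and 1 of 12, against 27%, 27.7%, 27.5% and 35.5% of erythroid cells. The stem cell gene Hlf had 0 UMIs in all 80 members. The members' transcripts thus did not show the gate they were sorted through. Surface protein was not measured here.

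**Figure D2:**
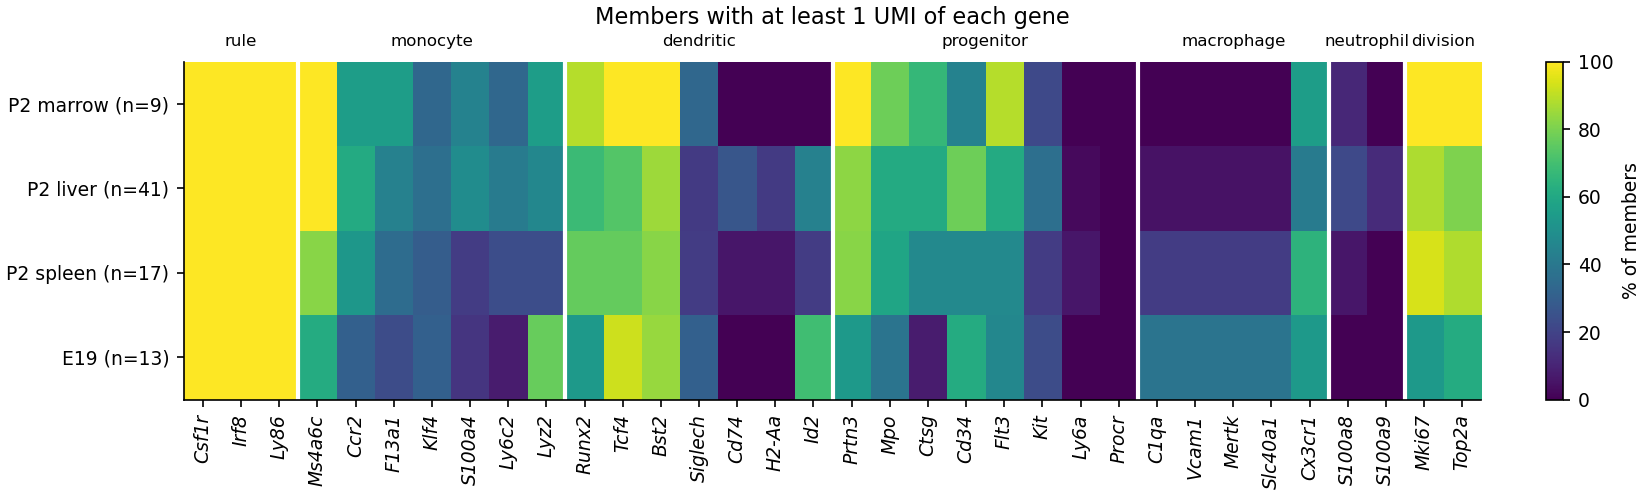
Percentage of members with at least 1 UMI of a gene (colour scale), by library (rows) and gene (columns, ordered by role), without thinning. Ms4a6c fills the P2 marrow and liver rows, C1qa is seen in 0 of 9 marrow and 5 of 13 E19 members, and Procr is empty in every row.

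Genes of the myeloid regulatory core were read in most members. Spi1, which encodes PU.1, was at 308, 389.6, 199 and 293 CPM in 9, 40, 14 and 11 members, against 166, 182, 95 and 100.5 CPM in the rest. Zeb2, a repressor gene with roles in monocyte and plasmacytoid fates, was at 742, 623, 505 and 1180.2 CPM. Klf4, needed for Ly6C-high monocytes, was at 71.1, 78.2, 44.3 and 58.6 CPM in 3, 15, 5 and 4 members, against 5.06, 18.9, 3.14 and 8.45 CPM in the rest. These levels stood above those of other cells in all 4 libraries. Tyrobp, which encodes the signalling adaptor DAP12, and Npc2, a lysosomal cholesterol carrier gene, had a UMI in all 80 members. Tyrobp was at 939.5, 781, 611 and 1158 CPM against 149, 311, 104 and 49.5 CPM.

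Toll-like receptor genes were low, and their partners differed from one another. Cd180, whose product pairs with that of Ly86, was at 55.3, 57.5, 66.4 and 51.3 CPM in 4, 21, 12 and 5 members. Unc93b1, which encodes the chaperone that delivers Toll-like receptors to endosomes, was at 86.8, 169, 164 and 396 CPM. Ly96, which encodes MD-2, the partner of Tlr4, was seen in 3 of 80 members and Cd14 in 2. Tlr7 had a UMI in 1, 2, 1 and 3 members, Tlr4 in 0, 7, 1 and 4, and Tlr9 in none of the 80. Among cytokine receptors besides Csf1r and Flt3, Csf2rb, the shared chain for GM-CSF, interleukin 3 and interleukin 5, was at 94.7, 172, 39.8 and 117 CPM. Csf3r, the G-CSF receptor gene of neutrophils, had 0 UMIs in marrow members and 14.4, 31 and 73.3 CPM in liver, spleen and E19.

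Receptors for antibody and tools of phagocytosis were unevenly present. Fcer1g, the signalling chain of Fc receptors, was at 403, 482, 358 and 682 CPM in 9, 40, 13 and 13 members, against 93, 177, 58 and 28.6 CPM in the other cells. Fcgr1, the high-affinity IgG receptor gene of monocytes and macrophages, was seen in 1, 11, 9 and 3 members. Fcgr3, a low-affinity IgG receptor gene shared with neutrophils, was seen in 0, 7, 1 and 5, and in liver its 11.2 CPM lay below the 53.6 CPM of the other cells. The adaptor chain was thus seen in 75 of 80 members, Fcgr1 in 24 and Fcgr3 in 13. Mpeg1, the pore-forming perforin 2 gene of phagocytes, was at 79, 97.4, 88.5 and 117 CPM, and Clec12a, an inhibitory lectin gene of myeloid cells, at 134, 137, 186 and 110.0 CPM.

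Genes of trafficking were led by Ccr2 and Cx3cr1. Cx3cr1 was at 55.3, 41.5, 119 and 183 CPM in 5, 17, 11 and 7 members, and the other cells had 4.23, 5.29, 4.41 and 3.41 CPM. Selplg, the selectin ligand gene PSGL-1, was at 189, 166, 177 and 103 CPM in 7, 36, 13 and 7 members. Itgam, which encodes the integrin CD11b of mature myeloid cells, was seen in 0, 12, 3 and 2 members, so it was far less frequent than Selplg.

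Of the fetal genes tested against the other cells, 0 of 6 in liver and 0 of 5 in spleen were called, and at E19 1 of 8 was higher and 1 lower. Among all tested genes 3.5% were higher and 5.52% lower in liver, 4.09% and 2.94% in spleen, and 7.44% and 3.54% at E19. At such shares, counts on so short a list say little about fetal genes. Igf2bp3, an RNA-binding protein gene of fetal progenitors, was at 205, 208, 146 and 323 CPM, against 155, 146, 118 and 138 CPM. Lin28b, which blocks let-7 maturation, was at 31.6, 28.7, 31 and 73.3 CPM, against 42.1, 30.9, 40.4 and 72.1 CPM. The imprinted genes H19 and Plagl1 had 0 UMIs in all 80 members.

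Most P2 members carried transcripts of dividing cells. Mki67, the gene of the proliferation antigen Ki-67, was seen in 9 of 9 marrow, 36 of 41 liver and 16 of 17 spleen members and in 7 of 13 at E19, at 553, 607, 496 and 439.8 CPM. The other cells had 487, 508, 516 and 272 CPM, so in the P2 tissues members did not differ from them by 2-fold. Of 14 G2/M genes, 0 were called in either direction against the other cells of P2 liver, and of 14 S phase genes 0 were called. The same held for both lists in spleen. At E19, 13 of 14 G2/M genes were higher and 0 lower (median log2 ratio 1.30, against 0.58 over all genes). Of 14 S phase genes 0 were higher and 1 lower, and of all tested genes at E19 7.44% were higher and 3.54% lower. Summed over the G2/M genes, E19 members had 3629 CPM against 1631 CPM in the other cells. The median E19 member had 1452 CPM (range 0 to 6915), so the excess came from a part of the members. Transcripts alone do not show that cells divide.

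Across all genes, members were set against the other cells of their library by summing UMIs, as a description, since the rule drew on the same cells. A gene counted as higher or lower past 2-fold with Poisson intervals apart, among genes with at least 50 UMIs in both sums together. Members came out higher at 3.5% of 13448 genes in liver, 4.09% of 13928 in spleen and 7.44% of 14525 at E19, and lower at 5.52%, 2.94% and 3.54%. Of the monocyte list, 9 of 13 tested genes were higher and 1 lower in liver (median log2 ratio 2.31, against 0.12 over all genes), 8 of 11 higher in spleen (2.97, against 0.37) and 6 of 11 higher at E19 (2.96, or 3.51 with 1 gene at 0 set at its bound of 3 UMIs, against 0.58, or 0.85 so set). Of the macrophage list, 12 of 14 were higher in liver (median 2.33), 11 of 12 in spleen (4.34) and 14 of 14 at E19 (7.43), which rested on few cells, as described below. Plasmacytoid genes were higher at 4 of 9 and lower at 3 of 9 in liver, higher at 5 and lower at 1 of 9 in spleen, and higher at 2 and lower at 0 of 8 at E19. Of the list of Fc receptors, phagocytosis and oxidase 5 of 13 were higher and 1 lower in liver, 7 of 13 higher in spleen and 10 of 12 at E19. Of chemokine receptors and adhesion genes 7 of 12 were higher and 1 lower in liver, 6 of 12 higher in spleen and 9 of 11 at E19. Of interferon response genes 2 of 9, 1 of 10 and 3 of 9 were higher. Conventional dendritic genes were higher at 0 and lower at 9 of 13 in liver, higher at 0 and lower at 4 of 13 in spleen, and higher at 1 and lower at 0 of 8 at E19. Their summed level at E19 was 557 CPM in members against 46.8 CPM in the other cells, and Id2 alone gave 433 CPM of it. Erythroid genes were lower at 10 of 10 in liver, 8 of 10 in spleen and 6 of 10 at E19, with 0 higher. B cell genes were lower at 7 of 7 in liver and 3 of 7 in spleen, and at E19 1 of 7 was higher and 1 lower. Granulocyte-monocyte progenitor genes were higher at 1 and lower at 6 of 8 in liver, higher at 0 and lower at 2 of 8 in spleen, and higher at 4 and lower at 0 of 8 at E19. Nothing is read from these counts about the members beyond their level in these libraries.

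The 25 genes that led the members, ranked by the lowest of their ratios in libraries with at least 20 members (liver alone met this) among genes at 50 CPM or more, held genes of different roles. Known from monocytes and other phagocytes were Ms4a6c, Lyz2, Ccr2, S100a4, Ifitm6, Klf4, Sirpa and Wfdc17. Among the others were Ctnnd2 (delta-catenin), Gria3 (a glutamate receptor subunit), Nrp1 (neuropilin 1, a semaphorin receptor), Auts2, Apba1 (Mint1, a vesicle adaptor) and Nos1ap. In liver the log2 ratios ran from 3.46 for Ctnnd2 to 1.95 for Frmd4b.

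These genes were then read in libraries that had not ranked them. Of the 25, 21 were at 2-fold or more over other cells in P2 marrow (15 with intervals apart), 22 in spleen (18), 23 at E19 (23) and 18 in tube 2 of the Tppp3 pups (18). In tube 1, with 3 members, 14 were (11), while 10 lay below the other cells and 9 had 0 UMIs. Over all tested genes, 4.09% in spleen and 7.44% at E19 were higher with intervals apart. That share was not computed for marrow or the tubes. The same rule chose the members in each library. Gria3 was at 845, 1158, 956 and 1268 CPM in the members of marrow, liver, spleen and E19, with log2 ratios of 2.73, 2.42, 3.71 and 4.29 over the other cells. Ctnnd2 was at 118, 180.4, 66.4 and 293 CPM, with log2 ratios of 4.00, 3.46, 3.60 and 6.80. Gria3 had a UMI in 9 of 9, 34 of 41, 13 of 17 and 8 of 13 members, and Ctnnd2 in only 3, 17, 6 and 4 of them, with 73.3% of its marrow UMIs and 47.5% of its E19 UMIs in 1 cell. The summed level of Ctnnd2 thus came from a minority of members. Dock4, which encodes an activator of Rac, had log2 ratios of 4.05, 3.3, 4.37 and 6.59, and Nrp1 of 3.81, 2.38, 3.29 and 6.30. Lyz2, in contrast, had log2 ratios of 0.64 in marrow and 0.47 in spleen. Wfdc17 had 0 UMIs in marrow members, and in tube 2 Runx2 was at a log2 ratio of 0.14, Ccnd1 at −0.60 and Auts2 at −1.27.

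**Figure D3:**
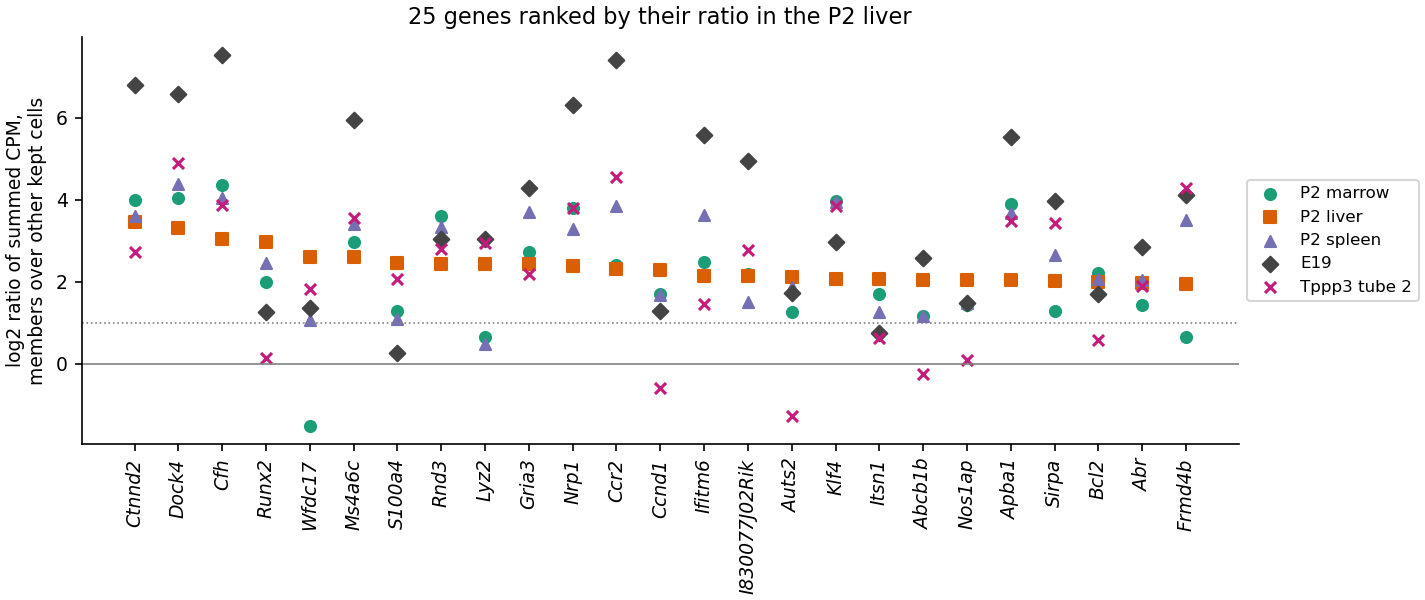
Log2 ratio of summed CPM, members over other kept cells of the same library (y axis, 1 UMI added to each sum), for the 25 leading genes ordered by their ratio in P2 liver (x axis), in P2 marrow, liver, spleen, E19 and tube 2 of the Tppp3 pups. The dotted line marks 2-fold. Ctnnd2, Dock4, Nrp1 and Ms4a6c lie above it in all 5 libraries, and the marrow point of Wfdc17 (0 UMIs) depends on the added UMI.

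Promoters of these genes were examined because Irf8 acts with PU.1 on composite sites. Of the 25 genes, 20 had entries in the RefSeq promoter table (27 promoters of 300 bases, from 250 before to 50 after a start site, build GRCm38.p6). The letters GAGGAAGT, the PU.1 type, were searched on both strands and found in 3 of the 27 promoters (11.1%), against 3.20% of all 32851 promoters. The letters GGAANNGAA, the composite type that ETS and IRF proteins bind together, were found in 3 of 27 (11.1%), against 8.24% of all. The motifs can overlap at GGAA. A match is a description of letters, and binding was not measured. The promoters of 3 monocyte genes with a match are given 5' to 3' on the strand of the gene, with the match in capitals: Ccr2 (chr9:124101933-124102232, plus strand, composite type 191 bases before the start), Ms4a6c (chr19:11469118-11469417, plus strand, composite type on the opposite strand, after the start) and S100a4 (chr3:90603520-90603819, plus strand, PU.1 type on the opposite strand, after the start).
Ccr2: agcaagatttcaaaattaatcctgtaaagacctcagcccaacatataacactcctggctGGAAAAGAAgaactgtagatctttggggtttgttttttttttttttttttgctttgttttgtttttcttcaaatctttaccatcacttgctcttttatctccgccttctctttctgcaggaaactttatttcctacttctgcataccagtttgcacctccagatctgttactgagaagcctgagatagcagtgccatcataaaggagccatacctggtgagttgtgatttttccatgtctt
Ms4a6c: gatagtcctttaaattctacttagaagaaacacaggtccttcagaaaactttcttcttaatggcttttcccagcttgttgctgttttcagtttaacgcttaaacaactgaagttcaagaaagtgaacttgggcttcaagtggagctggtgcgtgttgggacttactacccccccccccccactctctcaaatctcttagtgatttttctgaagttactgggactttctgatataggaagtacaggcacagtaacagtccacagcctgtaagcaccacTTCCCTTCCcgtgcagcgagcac
S100a4: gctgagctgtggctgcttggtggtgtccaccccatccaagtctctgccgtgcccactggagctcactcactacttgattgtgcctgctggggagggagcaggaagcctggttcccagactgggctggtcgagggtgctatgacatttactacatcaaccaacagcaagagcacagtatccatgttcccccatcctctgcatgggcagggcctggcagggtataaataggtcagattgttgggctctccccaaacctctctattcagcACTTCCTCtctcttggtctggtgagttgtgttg
The other matches were the PU.1 type in I830077J02Rik and Abr and the composite type, at 2 places, in Ifitm6.

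A minority of the members carried a tissue-macrophage program. C1qa, C1qb and C1qc, which encode the chains of complement C1q that resident macrophages make, had UMIs in 0 of 9 marrow, 2 of 41 liver, 3 of 17 spleen and 5 of 13 E19 members. These 10 cells held from 5 to 65 C1q UMIs (median 43.5) and the other 70 held exactly 0, so in raw UMIs no cell lay between 0 and 5. Scaled to depth, the spleen cell with 5 C1q UMIs, of 17459 UMIs in all, stood lowest of the 10. Next above it was the liver cell with 9 of 4732. By Scrublet, which scores likely doublets, 3 liver and 2 spleen members were among the highest scores, both of these cells included. Whether they were doublets was not tested. A C1qa UMI was present in 0.379% of erythroid cells in liver, 1.09% in spleen and 3.44% at E19. The cells with C1q had a lower median depth, 5765 against 14041 UMIs.

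Macrophage genes moved with C1q in the same cells. Vcam1, the adhesion receptor gene of erythroblastic island macrophages, was at 1353 CPM over the 10 cells with C1q and had 0 UMIs in the other 70, and Slc40a1, the iron exporter ferroportin, was at 2171 CPM against 0 UMIs. Mertk, a receptor for apoptotic cells, was at 1279 CPM and Cd5l, a macrophage survival factor gene, at 1427 CPM, again against 0 UMIs. Adgre1, which encodes F4/80, was at 847 against 15.3 CPM, Mrc1 (the mannose receptor) at 743 against 0.954 CPM, and Marco (a scavenger receptor) at 579.8 CPM against 0 UMIs. Csf1r itself, a gene of the rule, was at 1070.5 against 198 CPM, and Irf8 at 253 against 636 CPM.

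The precursor genes showed the reverse. No UMI of Mpo, Prtn3, Ctsg, Cd34 or Flt3 was found in 9 of the 10 cells with C1q, and the remaining one had 1, while 1 of the other 70 members had none and their median was 22.5. Ccr2 was seen in 0 of 10 against 43 of 70, Runx2 in 0 of 10 against 56 of 70, Ms4a6c in 4 of 10 against 68 of 70 and Plac8 in 2 of 10 against 70 of 70. Mki67 was seen in 2 of 10 against 66 of 70. Against its label, the rule therefore also gathered cells with macrophage genes and almost no transcripts of progenitors. Depth differed between them, and its part in the shares was not tested.

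**Figure D4:**
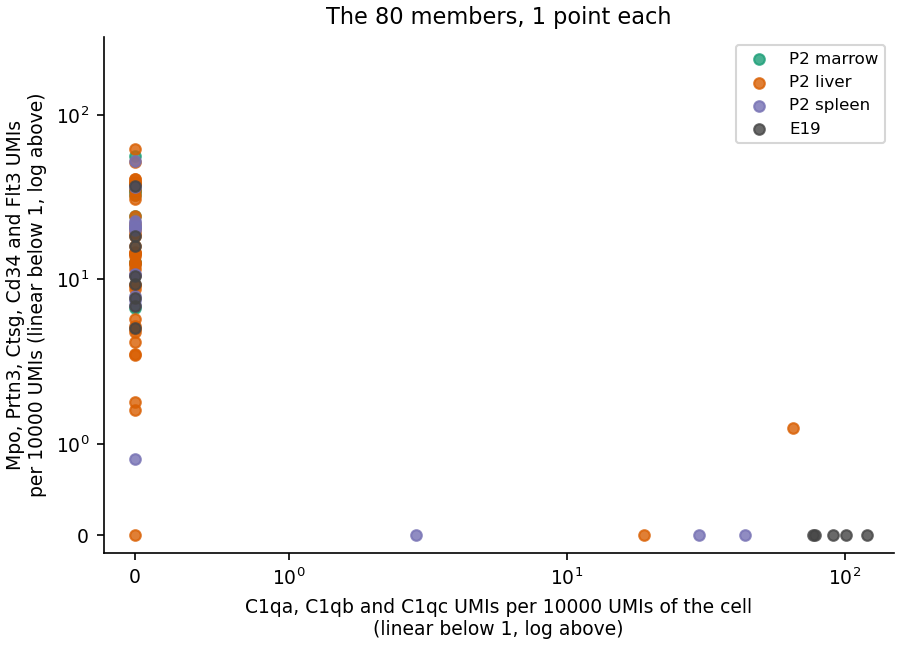
UMIs of C1qa, C1qb and C1qc (x axis) against UMIs of Mpo, Prtn3, Ctsg, Cd34 and Flt3 (y axis), each scaled to the cell's total UMIs as the axes state, linear below 1 and logarithmic above, 1 point per member and coloured by library (points overlap). The 10 members with C1q lie along the x axis, and the 70 others stand at 0 on it.

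Siglech and Ccr2 were set beside C1q in the same cells. Siglech was seen in 17 members and Ccr2 in 43, both in 6, and neither was seen in a cell with C1q. Of C1q, Siglech and Ccr2, 58 members had exactly 1, 6 had 2, none had 3 and 16 had none. Flt3 was seen in 15 of the 17 cells with Siglech and in 32 of the 63 without it, and Mki67 in 17 of 17. F13a1 was seen in 23 of the 43 members with Ccr2 and in 9 of the 37 without, and Lyz2 in 27 of 43 and 11 of 37. The 37 included the 10 cells with C1q, of which 8 had Lyz2 and 0 had F13a1. At these counts such shares are descriptions.

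Clustering of the 80 members on their own, without the rule genes, gave 3 groups of 34, 25 and 21 cells. The first (6, 17, 6 and 5 cells of marrow, liver, spleen and E19) held all 10 cells with C1q and was led by Slc40a1, C1qb, C1qc, C1qa, Cd5l, Vcam1, Mertk, Itga9, Apoe and Maf. Each of these genes was seen in at most 15 of its 34 cells, so the group is given by number and not as macrophages. The second (2, 8, 8 and 7 cells) was led by Ccl4, St8sia1, Ccl3, Setbp1, Ly6d, Siglech, Kynu, Gm34680, Ctnnd2 and Atp1b1. It held 12 of the 17 cells with Siglech, and Ly6d was seen in 5 of its 25 cells, so it too is given by number only. The third (1, 16, 3 and 1 cells), also unnamed, was led by 2610307P16Rik, Hmga2, Adgrg1, Sox4, Myb, Kctd1, Il12a, Adgrg3, Egfl7 and Mpo. Myb, a transcription factor gene of progenitors, was seen in 20 of its 21 cells against 22 of the 59 others, and Mpo in 21 of 21 against 26 of 59. Of its cells, 16 were from liver. The number of groups depended on the resolution, with 6 at a resolution of 1 and 1 at 0.25, and it remained 3 without cell-cycle genes.

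Liver members were compared with spleen members, 2 tissues of P2 wild-type mice in the same batch. Of 3263 genes, 55 (1.69%) were higher in liver and 19 (0.582%) were higher in spleen past 2-fold with intervals apart. The median log2 ratio was 0.03, and median-of-ratios scaling moved it to 0.00. Of the 55, 45 were also above 0 between the other cells of the 2 libraries, and of the 19, 16 were also below. In all, 37 of the 74 differed by over 2-fold from the ratio in the other cells, and 4 drew over 50% of their UMIs from 1 cell.

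Lyz2, Cd74, Id3 and Ifitm3 were among the genes at a higher summed level in liver members. Lyz2 was at 607 CPM in liver and 44.3 CPM in spleen, a log2 ratio of 3.64, against 1.69 in the other cells. Of its 380 UMIs in liver members, single cells held 126, 83 and 58. Cd74 was at 199.6 against 4.43 CPM (log2 ratio 4.51, other cells 1.12), seen in 11 of 41 and 1 of 17 cells. Of its 125 UMIs in liver, 3 cells held 56, 40 and 17. With Csf1r at 3 UMIs or more required, Cd74 was at −0.32. That setting left out 14 of the 17 spleen members, and those left had 0 Cd74 UMIs, so the value depended on the added UMI. Id3, an inhibitor of E proteins such as Tcf4, was at 150.1 against 13.3 CPM (3.10, other cells 1.77) in 21 of 41 and 1 of 17 cells. Ifitm3, an interferon-inducible antiviral gene, was at 715 against 155 CPM (2.17, other cells 0.08) in 34 of 41 and 10 of 17 cells. Of these, Ifitm3 therefore differed in the members and hardly in the rest of the library, and so did Efcab11 (2.62, other cells 0.16). S100a8, an alarmin gene of neutrophils and monocytes, was higher too (3.87), but 77.5% of its liver UMIs came from 1 cell and the other cells differed alike (3.69).

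Of the genes of Fc receptors, phagocytosis and oxidase 2 of 9, and of cytokine receptors 1 of 6, were higher in liver, and none was higher in spleen. Ncf4 and Cybb, which encode subunits of the phagocyte NADPH oxidase, were at log2 ratios of 2.05 and 1.53, Csf2rb at 1.98 and the protease gene Ctsc at 1.07. Among transcription factor genes Id2 was at 2.01 and Cebpb at 1.03. Id2 turned to −1.04 when Csf1r was required at 3 UMIs, which left out 14 of the 17 spleen members. Cd34 was at 171 against 79.7 CPM (1.04), opposite in sign to the other cells (−0.55). Of 6 monocyte genes tested, 1 (S100a4, 1.17) was higher in liver and 1 (F13a1) in spleen. Of the lysosomal list 2 of 12, of the myeloid factors 2 of 8 and of 14 G2/M genes 0 were higher in liver, and none of these was higher in spleen.

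Cx3cr1 and F13a1 were at a higher summed level in spleen members. Cx3cr1, the fractalkine receptor gene of monocytes, macrophages and their shared precursor, was at 119 CPM in spleen (11 of 17 cells) and 41.5 CPM in liver (17 of 41), a log2 ratio of −1.52 for liver over spleen, against 0.26 in the other cells. F13a1 was at 345 against 126 CPM (−1.45), seen in 6 of 17 spleen and 18 of 41 liver members, and 3 spleen cells held 27, 22 and 12 of its 78 UMIs there. In the other cells it was higher in liver (2.27). With Csf1r at 3 UMIs or more it was at 1.91 in the members. That setting left out 14 of the 17 spleen members, and those left had 0 F13a1 UMIs, so the value depended on the added UMI. Nedd9, an adhesion scaffold gene, was at −1.25 (other cells 0.76). These 3 genes thus went one way in the members and the other way in the rest. Blvrb (−2.51) and the metallothionein gene Mt1 (−2.36) drew 55.9% and 57.1% of their spleen UMIs from 1 cell each, and Dpm3, Dnm1l and Psmg1 were at −1.39, −1.34 and −1.26.

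**Figure D5:**
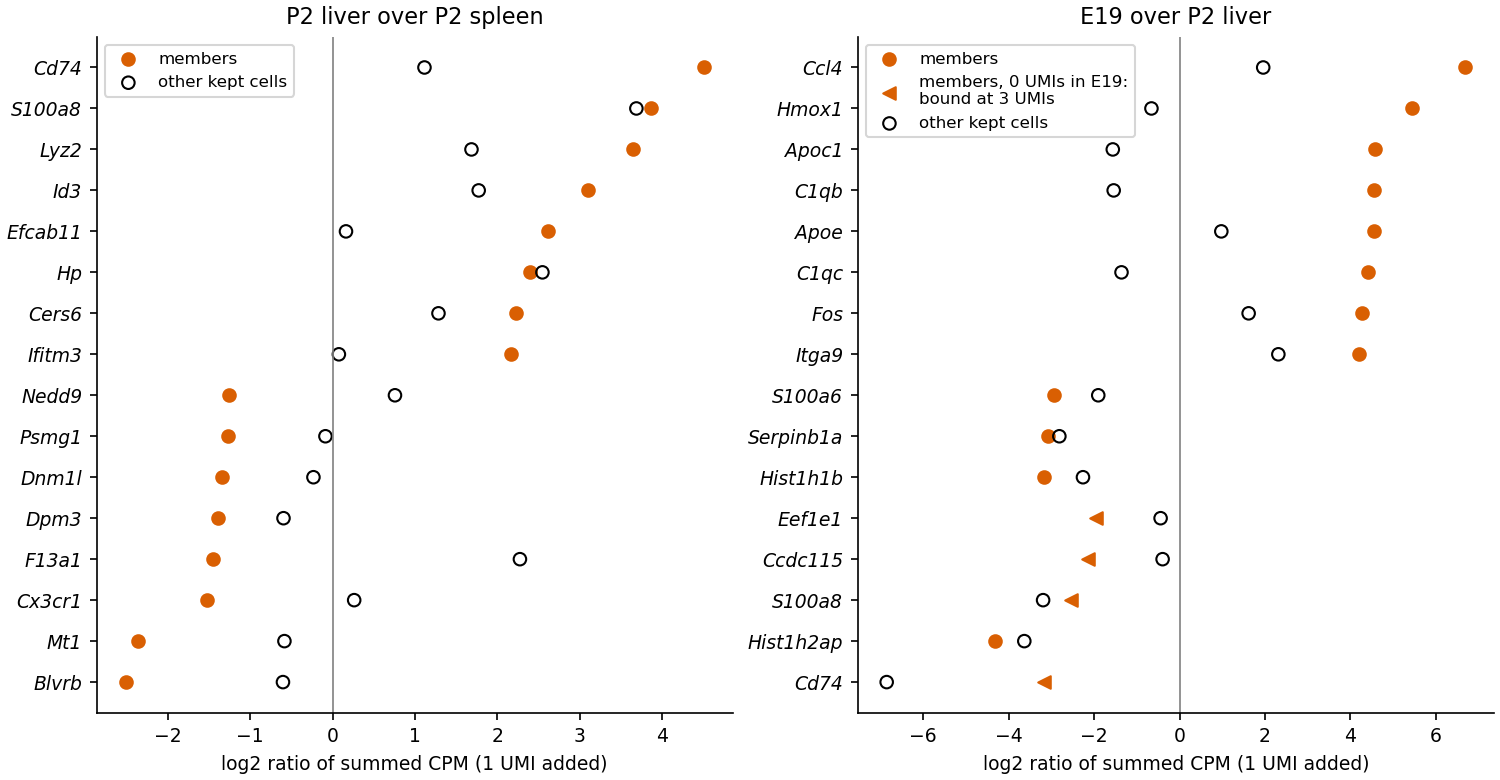
Log2 ratio of summed CPM (x axis, 1 UMI added to each sum) for the 8 genes with the highest and the 8 with the lowest called ratio, P2 liver over P2 spleen (left) and E19 over P2 liver (right). Filled points are members and open points the other kept cells of the same libraries. Triangles are E19 genes at 0 UMIs, drawn at the bound that 3 UMIs give. F13a1 and Cx3cr1 lie on opposite sides of 0 in members and other cells on the left.

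E19 members were compared with P2 liver members, where age, batch and possibly tissue differ together and cannot be told apart. Of 3045 genes, 200 (6.57%) were higher at E19 and 203 (6.67%) were higher in P2 liver. The median log2 ratio was −0.05, and −0.20 with median-of-ratios scaling, and the ratios below are on the CPM scale. In the other cells, 131 of the 200 and 196 of the 203 went the same way. Without the cells with C1q (5 of 13 at E19 and 2 of 41 in liver), 105 genes were higher at E19, with fewer cells in both sums. The number of genes tested without those cells is not given here, so this count is not a share.

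Many E19-high genes were those of the cells with C1q. C1qb was at 667 CPM in E19 members and 27.1 CPM in liver members (log2 ratio 4.55), and Apoe, the lipoprotein gene of macrophages, at 2522 against 107 CPM (4.54, and 3.3 without the cells with C1q). Summed over the 16 genes of the macrophage list, members had 63.2 CPM in marrow, 409 in liver, 677 in spleen and 4992 at E19, with 14, 1, 2 and 0 of the genes at 0 UMIs. All 9 tested macrophage genes and 5 of 12 lysosomal genes were higher at E19. Hmox1, the heme-degrading enzyme gene, was at 5.45 with 80.4% of its UMIs in 1 cell, and at 0.51 without the cells with C1q. The lysosomal genes Lgmn (2.92), Ctsd (2.51) and Grn (2.20) were at 0.12, 0.22 and 0.62 without those cells, and Ctsb (2.67) and the macrophage factor gene Maf (3.32) turned to −0.22 and −0.07. These genes therefore followed the 5 of 13 E19 members with C1q.

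Other E19-high genes kept a ratio past 2-fold without those cells. Fos, an immediate early transcription factor gene, was at 579 CPM (458 to 722) at E19 and 28.7 CPM (17 to 45.4) in liver, in 10 of 13 and 14 of 41 cells, with a log2 ratio of 4.27 and of 4.24 without the cells with C1q. The other cells of these libraries differed in the same direction by 1.62, and marrow and spleen members had Fos at 47.4 and 4.43 CPM. Jun was at 2.17 (1.32 without the cells with C1q, other cells 1.73). Ccl4, a chemokine gene of activated monocytes and macrophages, was at 484 against 3.19 CPM in 7 of 13 and 2 of 41 cells (6.68, and 6.97 without the cells with C1q), with 43.9% of its UMIs in 1 cell. Cybb was at 1.84 and 1.83, Irf5, a factor gene of inflammatory macrophages, at 1.20 and 1.16, and Unc93b1 at 1.24 and 1.07, with and without those cells. In the other cells these 3 genes were lower at E19 (−3.63, −2.53 and −1.52). Id2 was at 2.04 (1.32 without those cells), against −3.78 in the other cells.

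Among genes higher in P2 liver members were 2 histone genes, granule genes and Cd74. Hist1h2ap and Hist1h1b were at 1742 and 2121 CPM in liver and 80.6 and 227 CPM at E19 (log2 ratios of −4.31 and −3.18), close to the −3.63 and −2.26 of the other cells. Prtn3 was at −1.24, Mpo at −1.07 and Ctsg at −1.28, far less than the −3.61, −4.04 and −5.52 of the other cells. Of 4 progenitor genes tested 3 were higher in liver members. Without the cells with C1q, Prtn3, Mpo and Ctsg were at −0.93, −0.76 and −0.96, under 2-fold. S100a4 was at −2.66 and S100a6 at −2.93. Cd74 had 0 UMIs in the 13 E19 members and 199.6 CPM in liver, at least 9.08-fold lower at E19 by a floor of 3 UMIs in the sum of the E19 members. Of 2 class II genes tested, it was the only one called, and 3 liver cells held most of its UMIs, as above. Ccdc115 and Eef1e1 were also at 0 UMIs at E19, at least 4.43-fold and 3.85-fold lower than in liver, where 30 and 27 of 41 cells had them, while the other cells differed by −0.40 and −0.44 on the log2 scale.

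The 2 tubes of Tppp3 pups gave a reading of the same rule in samples it did not use. Tube 1 held 3 members of 2722 cells and tube 2 held 61 of 2473 cells (2.47%, 1.89 to 3.16). Split by hashtag, 62 of 2346 cells of pup 1 were members (2.64%, 2.03 to 3.38) and 0 of 2679 cells of pup 2, with an exact upper limit of 0.138%. In pup 1 the reporter-negative cells had 15 of 596 members in marrow (2.52%, 1.42 to 4.12) and 44 of 1675 in spleen (2.63%, 1.92 to 3.51). The shares of the 2 pups therefore differed by more than the counting error, while the intervals of marrow and spleen in pup 1 overlapped. Pup and tube nearly coincided, since the reporter-negative cells of pup 1 were in tube 2 and those of pup 2 in tube 1. Of the few reporter-positive cells, pup 1 had 3 members of 53 spleen and 0 of 22 marrow cells in tube 1. In tube 2, pup 2 had 0 members of 45 marrow and 0 of 35 spleen cells. Pup and tube were not told apart here. The share of pup 1 lay above that of each of the 4 libraries, but at unlike depth. Cells other than members had medians of 20131 and 20571 UMIs in tubes 1 and 2, against 6521 to 8269 in the 4 libraries. The rule was not read in the tubes after thinning, and the part of depth in these shares was not tested.

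Tube 2 members had more transcripts of mature myeloid cells and fewer of progenitors than the members of the P2 tissues. Lyz2 was at 5885 CPM in 53 of 61 members, S100a8 at 1355 CPM in 45 and Fn1 at 498 CPM in 28. Prtn3 was at 70.8 CPM in 10 of 61, Mpo at 48.9 CPM in 3, and Flt3 at 40.2 CPM in 6. The other cells of tube 2 also had Lyz2 at 767 and S100a8 at 2651 CPM, above the other cells of the 4 libraries, and the part of free RNA in these values was not tested. C1q was seen in 3 of 15 marrow and 23 of 44 spleen members of pup 1's reporter-negative cells. Among spleen members, those without C1q had a median of 164 Lyz2 UMIs and those with C1q a median of 2, and the 12 marrow members without C1q had a median of 213. Kit had a UMI in 5 of 61 and Procr in 4 of 61. The 3 marrow members with C1q had a median of 71 Lyz2 UMIs. In UMIs per cell, not scaled to depth, Lyz2 was thus lower in members with C1q in both tissues of tube 2. Over the 80 members of the 4 libraries it was read by another measure, the summed CPM. There it was at 699 CPM in those with C1q (8 of 10 cells) and 432 CPM in those without (30 of 70).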

How the data were processed

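UMI counts per gene and barcode were deposited as matrices of 32285 genes, 1 per library. Per the file headers they came from Cell Ranger 7.0.0 (P2), 7.1.0 (E19) and 8.0.1 (tubes), and the submitters' processing notes name mm10. No per-sample column was left unused (0). The members and gene lists (27) were chosen with earlier results of these data known. Named genes were those of the rule and its markers, the 25 leading genes of members, in each tissue comparison the 8 highest and 8 lowest called genes and those over 2-fold from the other cells' ratio, and list genes. Raw UMIs were summed over members per library. Comparisons were planned for at least 20 members a library, and this was lowered to 10 after the members were counted, since only liver passed. Ratios had 1 UMI added to each sum. Doublets were not removed, and Scrublet scores in scanpy 1.11.5 served as an alternative. Members were clustered with Leiden (leidenalg 0.10.2, resolution 0.5, 1500 variable genes, 20 components, 15 neighbours). Tubes were split by the highest hashtag, at 3 times the next or more. Python 3.11.15, numpy 2.4.6, scipy 1.17.1 and pandas 2.3.3 were used, and the calls were tested on simulated data. Counts at this depth give wide intervals for 9 marrow members, which entered no comparison between tissues.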

Additional observations from a re-analysis of the deposited data

Results flagged for a closer look

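In the tubes of Tppp3 pups, which the comparisons between tissues do not use, members made up 2.64% of the cells of pup 1, above every one of the 4 libraries, and 0 of 2679 cells of pup 2. The difference was not tested, since each pup is 1 animal and nearly all cells of a pup came from 1 tube. Cells of the tubes were also read more deeply than those of the 4 libraries, and the part of depth was not tested.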

How the results depend on the processing

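Shares of members depended on the rule's thresholds. With Csf1r at 1 UMI they were 0.550% in marrow, 1.15% in liver and 0.564% in spleen, and with 3 UMIs 0.0611%, 0.426% and 0.0332%. Without the absent genes they were 1.15%, 4.46%, 0.542% and 0.261% (E19). With the rule after thinning they were 0.454% in liver and 0.0487% in spleen, and with at least 2000 genes and 5000 UMIs 1.01% in liver. Not thinned, Kit was seen in 36.6% and Flt3 in 61.0% of liver members. Genes higher in liver than in spleen numbered 86 with no minimum count, 6 with a minimum of 200, 26 with Csf1r at 3 UMIs and 23 after thinning, and genes higher in spleen 74, 1 and 6 (no minimum, 200, thinned). Genes higher at E19 than in liver numbered 467 with no minimum, 14 at 200, 49 after thinning and 105 without the cells with C1q, an alternative chosen after seeing the data, and those higher in liver 53 at 200 and 72 after thinning. The main settings gave 55 and 19 of 3263 genes between liver and spleen, and 200 and 203 of 3045 between E19 and liver. The number of genes tested changes with the minimum and with the UMIs summed. It is not given for the other settings, so their counts are not shares. With Csf1r at 3 UMIs, Cd74 (−0.32), F13a1 (1.91) and Id2 (−1.04) between liver and spleen and Hmga2 (−0.028) between E19 and liver turned. That setting left out 14 of the 17 spleen members. Those left had 0 UMIs of Cd74 and F13a1, so the values of these genes depended on the added UMI. Without the cells with C1q, Maf (−0.074) and Ctsb (−0.22) turned. Clusters numbered 6 at resolution 1 and 1 at 0.25. The cause was not tested, except that fewer cells or UMIs entered the stricter settings. Of gene values, 362 kept their size, 168 moved and 6 reversed. Of the readings of main results, which include the shares and the number of clusters, 49 kept their size and 30 moved. No paired analysis was possible because each group is 1 library.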
